A study of Gallus gallus with 12 samples.

Results

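The genes described here are the 200 most abundant of the 3519 genes that were listed in chicken primary fibroblasts and in none of the tables of 3 kinds of red cell lineage: HD3 erythroblasts, embryonic red blood cells and adult red blood cells. They were chosen by their measured values: absence from the other 3 tables, and the mean of the 3 fibroblast replicates. Fibroblasts listed 13451 genes, and the 4 tables together listed 13889. The members' height in fibroblasts and their absence elsewhere are therefore the terms of the choice, given as a description with no test.

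Stranded RNA-seq libraries were made from total RNA depleted of ribosomal RNA, with 3 replicates for each of the 4 cell types and wild-type cells throughout. The fibroblasts were primary cells, and HD3 is a line of chicken erythroblasts transformed by an avian retrovirus. Both were grown in culture in the same serum-supplemented medium. Embryonic red blood cells came from embryos at day 10, and adult red blood cells from hens aged 28 to 38 weeks. The labels do not say whether the 3 fibroblast replicates came from separate cultures, embryos or birds, so the spread between them may be partly technical. Values are FPKM, fragments counted on a gene relative to its length and to the size of the library, which the authors scaled to cell number (scaled FPKM below).

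Fibroblasts are connective tissue cells, known for secreting and remodelling the extracellular matrix of collagens, proteoglycans and glycoproteins, and for attaching to it through integrins. Erythroid cells give up most of the gene expression of other lineages as they mature and devote their RNA largely to globins. Red blood cells of birds keep a nucleus, but it becomes compact and makes little RNA. The deposited tables name genes by Ensembl IDs alone, and the reference table used here paired 0 of the 13889 IDs with a symbol. Which members encode matrix or adhesion proteins was thus not analysed, the fibroblast label could not be checked against marker genes, and no role is given to any ID.

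The 200 genes spanned a wide range of levels with a steep top. Their means in fibroblasts ran from 43.3 to 3913 scaled FPKM, with a median of 96.2 and quartiles of 61.2 and 198. Of the 200, 98 had a mean of at least 100, 30 of at least 300 and 5 of at least 1000. Among all 13451 genes listed in fibroblasts, 13 members were among the 100 highest, and the lowest member ranked 1536. The choice ended within a smooth run of values: the last 3 members had means of 44.0, 43.9 and 43.3, and the next 3 genes outside had 43.2, 43.1 and 43.0.

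**Figure D1:**
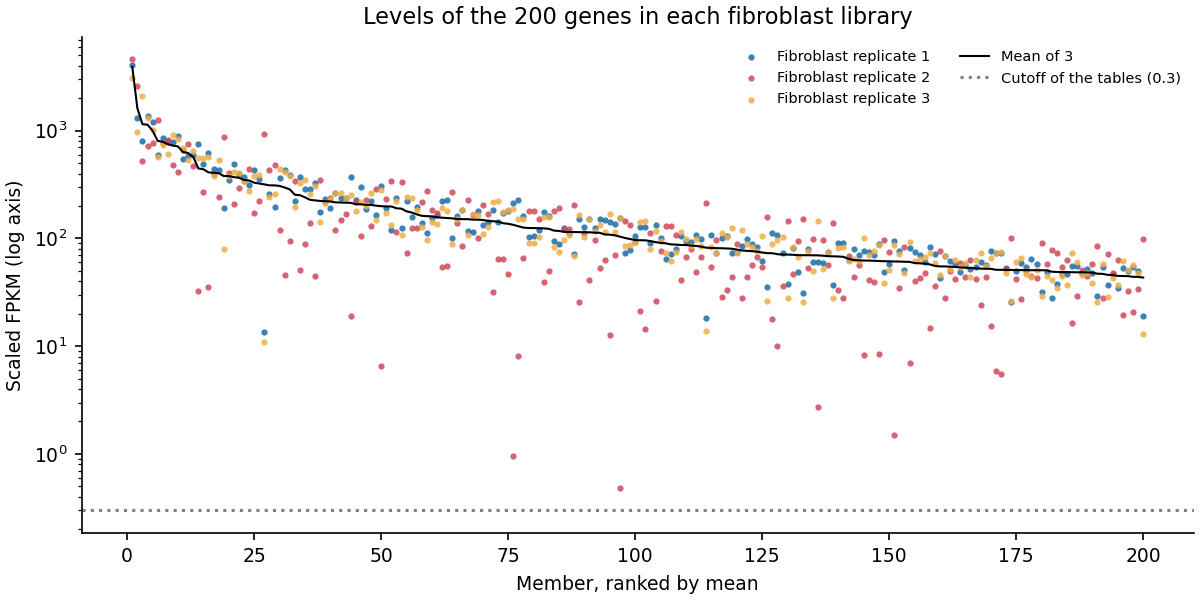
Scaled FPKM (log axis) of the 200 genes in fibroblast replicates 1, 2 and 3 (points) against their rank by mean (line), with the cutoff of 0.3 dotted. Most points lie near the line, and the points far below it are mainly those of replicate 2, down to 0.483.

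ENSGALG00000009641, the highest member, was at 4080, 4589 and 3068 scaled FPKM in fibroblast replicates 1, 2 and 3, a mean of 3913 ± 774 (SD, n = 3). It ranked 8 among all listed genes and rested on 75721, 225474 and 121671 recovered reads. Its mean was 2.42 times that of the next member, and it alone made up 10.3% ± 2.54 (SD, n = 3) of the members' summed level. ENSGALG00000035584, the second highest, was at 1303, 2574 and 979 scaled FPKM, a mean of 1619 ± 843 (SD, n = 3), with replicate 2 well above the other replicates. The 10 highest members held 32.9% ± 2.96 (SD, n = 3) of the members' sum, so the remaining signal was spread over many genes.

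The members took a sizeable part of the fibroblast transcriptome. They made up 8.17%, 6.19% and 7.71% of the summed scaled FPKM of all listed genes in replicates 1, 2 and 3, a mean of 7.36% ± 1.04 (SD, n = 3). By reads the share was higher, at 12.2%, 10.3% and 12.3% of the reads on listed genes, or 11.6% ± 1.10 (SD, n = 3). Replicate 2 had the lowest share on both measures. The members also carried most of what was listed in fibroblasts alone: 72.1% ± 0.590 (SD, n = 3) of the summed level of the 3519 genes. They were chosen as the highest of these genes by the same values, so a large share follows from the choice.

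The members' values rested on many reads. The library totals that underlie the fibroblast FPKM were recovered from the deposited values as 9069947, 24014646 and 19380182 reads. Which reads these totals count is not given, so they need not be all reads sequenced. A member had a median of 2129, 3623 and 3928 reads in replicates 1, 2 and 3. The fewest reads of any member were 63, 26 and 93 in these libraries, and 194 of the 200 had at least 100 reads in every library. The median coefficient of variation (CV, the SD as a percentage of the mean) of a member over the 3 replicates was 37.0%. Read counting alone would give a median of 1.85%, which leaves out all other variation between libraries. Recovered lengths of the members had a median of 2092 bp, close to 2214 bp over all genes listed in fibroblasts. Only 2 members (1.00%) were shorter than 200 bp, against 5.66% of all listed genes, and 18 (9.0%) reached 5000 bp, against 7.43%. Recovered lengths are lower estimates. In simulated libraries they were exact for 90.5% of the members and 97.1% of all listed genes. Lengths of the members may thus be understated more often.

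The spread between replicates came mostly from 1 library. Replicates 1 and 3 were close: 197 members were within 2-fold of each other in these libraries and 3 (1.5%) were not. This was not particular to the members. The share beyond 2-fold was 1.65% of the 1336 genes listed elsewhere with a mean at or above the lowest member. It was 4.82% of the 13161 listed genes with no value of 0 in these libraries. Pearson's r of log2(FPKM + 1) over the 200 genes was 0.976 between replicates 1 and 3, but 0.437 between 1 and 2 and 0.391 between 2 and 3. Over all 13451 listed genes, which span a wider range of levels, the same values were 0.982, 0.916 and 0.906. Over the 1336 genes they were 0.968, 0.837 and 0.802. Over the other 3319 genes listed in fibroblasts alone they were 0.954, 0.711 and 0.694. These are correlations across genes, which share their libraries and are not independent, so they carry no test. Replicate 2 gave the lowest of the 3 values for 117 members (58.5%) and the highest for 71 (35.5%). Over all listed genes it was the lowest for 40.7% and the highest for 44.9%. For the 1336 genes these shares were 32.9% and 57.0%. For the other 3319 genes listed in fibroblasts alone they were 53.2% and 32.8%.

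**Figure D2:**
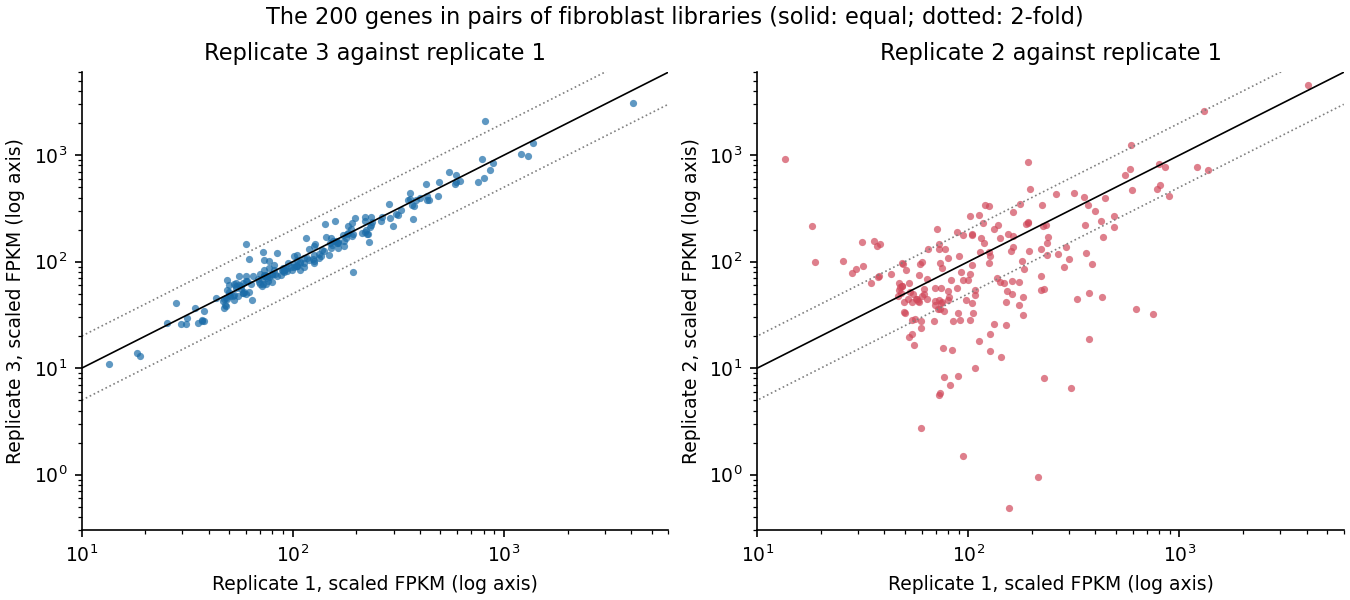
Scaled FPKM of the 200 genes in replicate 3 (left) and replicate 2 (right) against replicate 1, on log axes, with lines of equality (solid) and of 2-fold difference (dotted). On the left 3 genes lie outside the dotted lines, and on the right points scatter far outside them on both sides.

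Set against the mean of replicates 1 and 3, the members fell into 3 groups by their level in replicate 2. It was at least 2-fold lower for 67 members (33.5%), at least 2-fold higher for 27 (13.5%) and within 2-fold for 106 (53.0%). Over all 13079 listed genes with no value of 0 it was at least 2-fold lower for 14.5% and higher for 9.25%. The 67 had medians of 143, 33.0 and 146 scaled FPKM in replicates 1, 2 and 3, and held 33.4%, 10.2% and 36.6% of the members' sum. The 27 had medians of 48.3, 189 and 41.2, and held 9.20%, 28.0% and 8.04% of it. The 106 had medians of 93.2, 98.1 and 85.9. In the first group 65 of 67 members were within 2-fold between replicates 1 and 3, and in the second 26 of 27 were. Replicate 2 defined these groups, so their levels in it restate the split.

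The extremes were large, and their low values rested on far fewer reads than their high ones. ENSGALG00000005209 was at 156, 0.483 and 155 scaled FPKM in replicates 1, 2 and 3, from 4869, 40 and 10363 reads. Its log2 ratio of replicate 2 to the mean of the others was -8.33, the lowest of the 200. ENSGALG00000008367 was at 13.5, 927 and 11 scaled FPKM, from 99, 17962 and 172 reads, with a log2 ratio of 6.24, the highest. Replicate 2 was at least 10-fold lower for 16 members and at least 10-fold higher for 2. Over all 13079 listed genes with no value of 0 these counts were 283 and 86. They were 219 and 65 among 3056 other genes listed in fibroblasts alone, and 3 and 2 among 1336 equally abundant genes listed elsewhere. No member was at 0 in any library, and 2 were below 1 scaled FPKM in a replicate.

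The pattern reached the top of the list. Of the 20 highest members, 13 were within 2-fold in replicate 2, 4 were at least 2-fold lower and 3 at least 2-fold higher. Among equally abundant genes listed elsewhere, replicate 2 was at least 2-fold away for 54 of 123 with means of 300 to 1000, 49 of them higher. At 1000 and above it was so for 10 of 29, 6 of them higher. Differences of this size at the top were thus not particular to the members. The member ranked 14 was at 751, 32.3 and 556 scaled FPKM in replicates 1, 2 and 3, and that ranked 16 at 621, 35.7 and 573. The member ranked 19 went the other way, at 192, 865 and 79.1. The member ranked 3 had its highest value in replicate 3, at 809, 521 and 2109. Stable members existed at the same levels: the member ranked 7 was at 858, 774 and 732, and 19 of the 200 had a CV under 10%. In all, 95 members had a highest replicate under 2-fold above the lowest, and 20 had one at least 10-fold above it. These counts were made for the members only. The lower quartile of the CV was 19.5% for the members, against 11.98% for equally abundant genes listed elsewhere and 13.16% for all listed genes. For the other genes listed in fibroblasts alone, which are lower, it was 25.9%. Stable genes were thus not particular to the members.

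This instability was described beside that of other genes. Of the 1536 genes with a fibroblast mean at or above the lowest member, 1336 were listed in another table as well. Their median CV was 22%, against 37.0% for the members. A CV of at least 50% was found for 13.3% of them and for 34.0% of the members. The higher median CV of the members was seen at means below 300 scaled FPKM and not from 300 to 1000, as given by level below. Replicate 2 was at least 2-fold away from the other replicates for 19.0% of the 1336, 12.6% higher and 6.36% lower. For the members it was 47.0%, and over all 13079 listed genes with no value of 0 it was 23.8%. The other 3319 genes listed in fibroblasts alone, which are lower, had a median CV of 47.7%. Read counting alone would give them a median of 16.5%, against 2.01% for the 1336 genes and 1.85% for the members. Of the 3319, 3056 had no value of 0, and replicate 2 was at least 2-fold away for 50.7%, 15.6% higher and 35.1% lower. The members were near this, with 13.5% higher and 33.5% lower, so the pattern was not particular to them. Members and other genes come from the same 3 libraries, so these shares are descriptions and the difference was not tested.

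**Figure D3:**
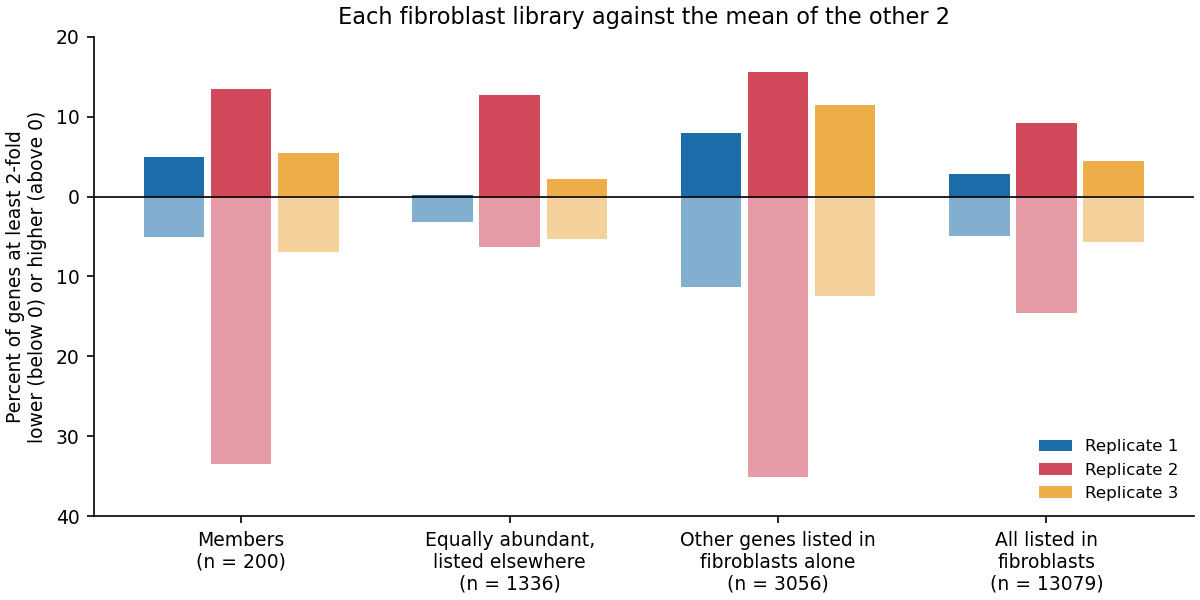
Percent of genes for which a fibroblast library was at least 2-fold higher (above 0) or lower (below 0) than the mean of the other 2 libraries, for 4 sets of genes without values of 0. Replicate 2 stood out in each set. It was lower for 33.5% of the members and 35.1% of the other genes listed in fibroblasts alone. The share was 6.36% for equally abundant genes listed elsewhere and 14.5% for all listed genes.

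The same counts were taken by level and direction, again with no test. From the lowest member to a mean of 100 scaled FPKM, replicate 2 was at least 2-fold lower for 32 of 102 members and 53 of 878 other genes, and higher for 13 and 70. From 100 to 300 it was lower for 28 of 68 members and 23 of 306 other genes, and higher for 9 and 44. From 300 to 1000 it was lower for 6 of 25 members and 5 of 123 other genes, and higher for 4 and 49. At 1000 and above it was lower for 1 of 5 members and 4 of 29 other genes, and higher for 1 and 6.

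Membership itself rested partly on replicate 2. Ranked without it, 183 of the 200 genes were still among the 200 highest. Of the 17 that were not, 14 were at least 2-fold higher in replicate 2. Of the 17 that took their place, 15 were at least 2-fold lower in it. Genes leave or enter by their level in the replicate left out, so these directions follow from the ranking. Without replicate 1, and likewise without replicate 3, 188 were retained. Ranked by a single replicate, the highest 200 shared 193 genes between replicates 1 and 3, 143 between 1 and 2, and 138 between 2 and 3. The members' sum was 40395, 35555 and 39147 scaled FPKM in the 3 libraries, so its total varied less than its make-up. Of the 50 highest members, 49 were retained without replicate 2.

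The next question was how often a gene this abundant in fibroblasts was missing from the other tables. Of the 1536 genes at or above the lowest member, 200 (13%) were listed in fibroblasts alone, and 1333 (86.8%) were on the erythroblast list. The embryonic red blood cell table held 542 (35.3%) and the adult one 294 (19.1%). All 4 tables listed 248 of them. Absence from the erythroblast table was nearly the same as membership, since only 3 genes missing there were listed in a red blood cell table. Below the lowest member 27.9% of 11915 genes were listed in fibroblasts alone.

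**Figure D4:**
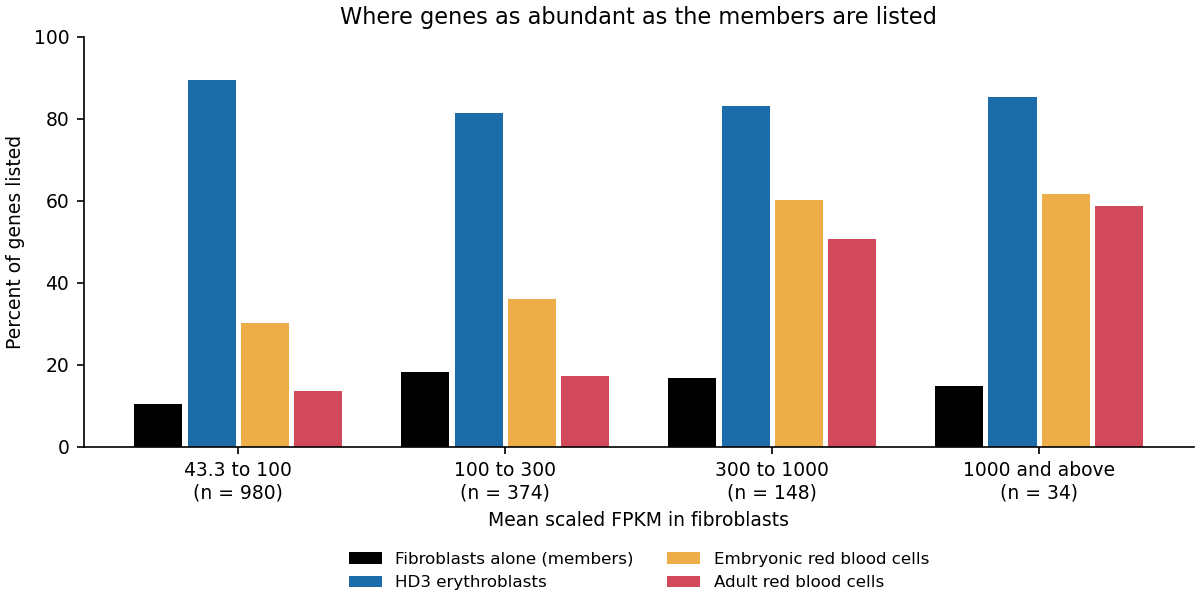
Percent of genes listed in fibroblasts alone and in each other table, by mean scaled FPKM in fibroblasts. The share listed in fibroblasts alone was 10.4%, 18.2%, 16.9% and 14.7% from the lowest to the highest level, while the share listed in red blood cells was larger at 300 and above than below it.

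The share of members did not fall steadily with level. It was 10.4% of 980 genes up to 100 scaled FPKM, 18.2% of 374 from 100 to 300, 16.9% of 148 from 300 to 1000 and 14.7% of 34 at 1000 and above. The share listed in embryonic red blood cells was 30.3%, 36.1%, 60.1% and 61.8% over the same ranges. That in adult red blood cells was 13.7%, 17.4%, 50.7% and 58.8%.

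How low the members are in the other cells can be bounded but was not measured. Every table stopped at an average just above 0.3, so a gene listed nowhere else was taken to average under 0.3 scaled FPKM there. On that scale the fibroblast mean was at least 144-fold higher than in each other cell type for the lowest member. It was at least 321-fold higher for the median member and at least 13042-fold higher for the highest. Among the 1333 equally abundant genes that erythroblasts list, the ratio of the fibroblast to the erythroblast mean had a median of 6.27 and a 95th percentile of 75.4. Of these genes, 31 (2.33%) had a ratio of 144 or more, and 48 (3.6%) had an erythroblast mean under 1. The members were chosen to lie at this end, and a few listed genes reached the bound of the lowest member. The listed genes had a 99th percentile of 332 and a maximum of 9171. The members' values are lower bounds, so their own ratios may be higher and cannot be ranked against these.

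These bounds hold on the per-cell scale alone. The authors' cell-number factor is not stated. In fibroblasts the recovered library totals were whole numbers without it, so it was taken as 1. Elsewhere a library must be at least as large as the reads on its listed genes, so the factor was 0.171 or more in erythroblasts. For embryonic red blood cells it was 0.0111 or more, and for adult ones 0.00253 or more, if replicates share 1 factor. Before scaling, the cutoff of 0.3 then stands for an FPKM of at most 1.75, 27.1 and 118. All 200 members had a fibroblast mean above the first and the second value, by at least 24.7-fold and 1.60-fold. Only 83 members (41.5%) were above 118. For the other 117, a share of the RNA in adult red blood cells as large as that in fibroblasts could still have kept them off the list. With a factor for each replicate, the adult cutoff could be as high as 139, which 73 members exceed. In these bulk samples, fewer cells that express a gene and less RNA of it per cell cannot be told apart.

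**Figure D5:**
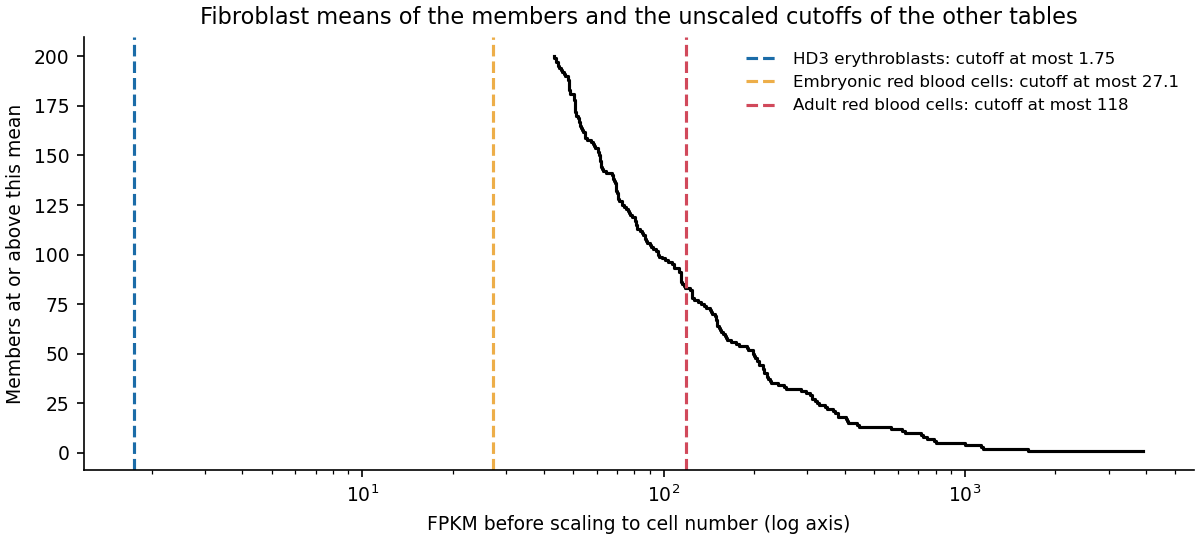
Number of members at or above each fibroblast mean (black line; FPKM before scaling to cell number, log axis) with the highest unscaled level that the cutoff of each other table can stand for (dashed). All 200 members lie to the right of the erythroblast and embryonic lines, and 83 lie to the right of the adult line at 118.

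Since erythroblasts list no member, the members could not enter a test between cell types. The equally abundant genes were placed in such a test as a point of reference, over the 9442 genes that both tables list and that averaged 1 or more. By limma on log2(FPKM + 1), 78.5% of these were lower in erythroblasts and 1.55% higher, at a Benjamini-Hochberg adjusted p under 0.05 and a log2 change of at least 1. The median log2 change of erythroblasts against fibroblasts was -1.73. Of the 1333 equally abundant genes, 1215 (91.1%) were lower and 2 higher, with a median log2 change of -2.56. They were chosen by their fibroblast level, which this comparison uses, so the larger share is no result about them. With samples centred on the median gene 537 of the 1333 were lower, and with equal sums 498. The split over all genes then moved to 1219 lower and 1536 higher with centring, and to 1528 lower and 1059 higher with equal sums.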

How the data were processed

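The authors deposited 1 table per cell type with FPKM values for 3 replicates and their average, scaled to cell number per the name of each table. Per the submitters' processing notes, STAR 2.7.2b, featureCounts and the build GRCg6a were used. Roles, options, the annotation release and the scaling factor are not given in the sources used here. Each column carries the description of 1 sample, and no column was unmatched. A gene that a table leaves out was not taken as 0.

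Members are the 200 genes with the highest mean over the 3 fibroblast columns among IDs in no other table. Members, lists and comparisons were chosen with earlier results of these data known. Gene lists and cell type markers drawn up for this work could not be applied, as 0 IDs matched a symbol. IDs printed are the 2 members with the highest mean and those with the highest and the lowest ratio of replicate 2 to replicates 1 and 3. Members given by rank, other than the highest, were picked after their values were seen.

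Whole reads and gene lengths were recovered as the smallest length that makes the reads of all samples whole, within 0.001 reads in fibroblasts and 0.02 in other tables. All 13451 genes gave a length, and a gene that no length fitted would have been left without one. The library totals were fitted to the same values, so this is no independent check. In fibroblasts the library totals came out within 7.19e-05 of whole numbers. In simulated fibroblast libraries, which took the recovered lengths as true, reads were exact for 90.5% of the 200 members and 97.4% of 13451 genes. No member's length was too long there, which taking the smallest length largely fixes in advance. By that choice single lengths and reads are lower estimates. Recovered reads on listed genes ranged from 8853478 to 23384958 per fibroblast library and from 9051992 to 19379455 per erythroblast library. The range was 6454461 to 17808628 for embryonic red blood cells and 2916404 to 9543340 for adult ones.

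Erythroblasts were compared with fibroblasts, two-sided, by limma 3.58.1 (R 4.3.3) with its trend option, on 6 samples with a pseudocount of 1. The fit had no replicate block. P-values measure the spread between these samples only. An error in the cell-number factor would move all replicates of a cell type alike.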

Additional observations from a re-analysis of the deposited data

How the results depend on the processing

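Ranking by the median or the lowest of the fibroblast columns retained 186 and 170 of the 200 genes, leaving out 1 replicate retained 183 to 188, and ranking by reads in place of FPKM retained 150. A length of at least 200 bp retained 198. Ranked by replicate 1, 2 or 3 alone, an alternative chosen after seeing the data, 185, 158 and 180 were retained. The members' share of the sum was 9.54% without the 10 highest genes of fibroblasts. The highest member ranked 8 among all listed genes by mean and is thus among these 10. Replicate 2 was the highest for 72 and the lowest for 119 members after centring on the median listed gene, and for 59 and 129 with equal sums. Between erythroblasts and fibroblasts, centring on the median gene left 1219 lower and 1536 higher genes, and equal sums 1528 and 1059. Of equally abundant genes, 537 and 498 were then lower. Leaving out 1 library gave 7196 to 7435 lower and 133 to 161 higher genes. With the replicate block there were 7432 lower and 150 higher genes. Replicate numbers were not taken to pair the samples. Deviations of same-numbered fibroblast and erythroblast samples had correlations of -0.104, -0.137 and 0.111. Differently numbered ones ran from -0.121 to 0.134. Such values cannot show whether same-numbered libraries were prepared together. Neither the cutoff of the tables nor the cell-number factor could be varied, and levels under the cutoff were not analysed here.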
